A study of Mus musculus with 12 samples.

Results

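The genes described here are the chemokines, a group of inflammatory cytokines, and subunits, inhibitors and targets of the transcription factor NF-kB, measured by bulk RNA sequencing in cultured embryonic mouse lungs. They were chosen by symbol, with earlier results of these data known. The rule took every symbol made of Ccl or Cxcl and a number (for Ccl also with a final letter a to d), and 19 further genes named singly. This gave 56 of the 24421 gene symbols in the table: 24 CC chemokines, 13 CXC chemokines, the CX3C chemokine Cx3cl1, 9 cytokines, 3 NF-kB subunits, 3 feedback inhibitors or regulators of the pathway, 2 adhesion molecules and the prostaglandin enzyme gene Ptgs2.

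All lungs came from wild-type CD-1 mouse embryos at embryonic day 12.5 and were grown as whole explants in Matrigel at an air-liquid interface. One day after isolation, which the labels call Day 0, the lungs of both Day 2 groups received a 20% solution of the polymer PEG-HCC. In the Day 2 compression group a two-photon laser hardened the polymer around the lung so that growth was restricted for 2 days. In the Day 2 control group the same amount of polymer solution stayed uncrosslinked for the same time, and the Day 0 group, whose treatment is also labelled control, was the starting point. Each group holds 4 libraries. Crosslinking and restriction cannot be told apart between compression and control, and culture time and any effect of the polymer solution cannot be told apart between a Day 2 group and Day 0. Nothing in the labels ties the 4 libraries of a group to separate embryos, and p-values therefore cover the spread between these samples, which may be technical.

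Chemokines are small secreted proteins that direct migrating cells through receptors coupled to G proteins, and tumour necrosis factor and interleukin 1 are cytokines that switch on NF-kB. NF-kB is held in the cytoplasm by inhibitor proteins until a signal has them degraded. It then enters the nucleus and drives chemokine, cytokine and adhesion molecule genes together with its own inhibitors Nfkbia and Tnfaip3, which end the response. In the lung these genes are made by macrophages, epithelium, endothelium and mesenchyme, and the fetal lung already holds macrophages.

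Total counts ranged from 13979871 to 33249761 per library, and levels are given in CPM, counts scaled to one common library size by the TMM method. 2 libraries stood apart. Control replicate 4 had the lowest total among the Day 2 libraries and held a summed 1536 CPM of 7 hepatocyte markers, against at most 16.9 CPM elsewhere. Compression replicate 1 held a summed 77.2 CPM of 7 interferon response genes, against at most 28.0 CPM elsewhere. Compression replicates 2 and 3, whose descriptions in the labels share a number, differed less from each other than any other pair within a group (mean chi-square per gene 4.07, against at least 7.48), though by more than sampling noise, and were counted as 2 samples. Xist, the RNA that coats the silenced X chromosome of female cells, exceeded 100 CPM in compression replicate 1 and control replicates 2 and 3. The lung epithelial markers Epcam, Cdh1, Nkx2-1, Sox9 and Sftpc were detected throughout and summed to 1737 to 2299 CPM under compression, 1570 to 1739 CPM in controls and 738 to 895 CPM at Day 0.

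A member was called expressed in a group when its mean was at least 1 CPM there. This held for 36 members under compression, 35 in controls and 26 at Day 0. Ccl28 under compression and Cxcl10 in both Day 2 groups met it through 1 library each, with the other 3 libraries of the group under 1 CPM. The 36 expressed members were 11 CC chemokines (Ccl2, Ccl3, Ccl4, Ccl6, Ccl7, Ccl9, Ccl11, Ccl12, Ccl25, Ccl27a and Ccl28), 8 CXC chemokines (Cxcl1, Cxcl2, Cxcl10, Cxcl12, Cxcl13, Cxcl14, Cxcl15 and Cxcl16), Cx3cl1, 7 cytokines (Lif, Tnf, Csf1, Il1a, Il18, Il33 and Il34), and each of the subunits, feedback genes, adhesion molecules and Ptgs2. Ccl24 passed the filter on low counts but stayed under 1 CPM in each group, so 37 members were tested and 19 were not. Of those 19, Ccl1, Ccl19, Ccl21a, Ccl21b, Ccl21c, Ccl26 and Ccl27b had no count in any library, which allows a level of up to 0.0899 to 0.214 CPM per library (3 counts, counting error only). The other 12 were Ccl5, Ccl8, Ccl17, Ccl20, Ccl22, Cxcl3, Cxcl5, Cxcl9, Cxcl11, Cxcl17, Il1b and Il6.

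Among these barely detected genes were Il1b and Il6, which encode the inflammatory cytokines interleukin 1 beta and interleukin 6. Il1b had 10 counts over the 4 compression libraries, 10 over the controls and 6 over Day 0. Il6 had 6, 4 and 1 counts in compression, control and Day 0 libraries. Ccl5, which encodes a T cell attracting chemokine, exceeded 1 CPM in a single library. It stood at 3.80, 0.0350, 0 and 0.0324 CPM in compression replicates 1 to 4, 0.0644, 0, 0 and 0.128 CPM in control replicates 1 to 4 and 0.0428, 0.0712, 0 and 0.0300 CPM in Day 0 replicates 1 to 4. The neutrophil chemokine gene Cxcl5 was also highest in compression replicate 1, at 2.13 CPM, against at most 0.511 CPM in the other 11 libraries.

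Levels of different genes were compared per kilobase of exon. Nfkbia, the gene of the NF-kB inhibitor IkB-alpha, had the highest level per kilobase in each group, with means of 29.6, 24.1 and 25.3 CPM per kilobase under compression, in controls and at Day 0. Icam1, which encodes a leukocyte adhesion molecule, was next under compression at 20.7 CPM per kilobase, and its range over the libraries touched neither that of Nfkbia nor that of Ccl6, the third. Ccl6, Cxcl14, Ccl3 and Vcam1 followed at 12.1, 11.4, 10.4 and 10.1 CPM per kilobase, and the ranges of these neighbours overlapped. At Day 0 the second place belonged to Cxcl12, the chemokine that guides cells carrying the receptor Cxcr4, at 14.3 CPM per kilobase. Its level was 7.02 CPM per kilobase under compression, where it ranked 12th, and 6.74 in controls, where it ranked 8th. Icam1 ranked 7th at Day 0 with 4.91 CPM per kilobase. The lowest mean of these members under compression was that of Ccl28, a chemokine of mucosal epithelia, which exceeded 1 CPM in compression replicate 1 alone.

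**Figure D1:**
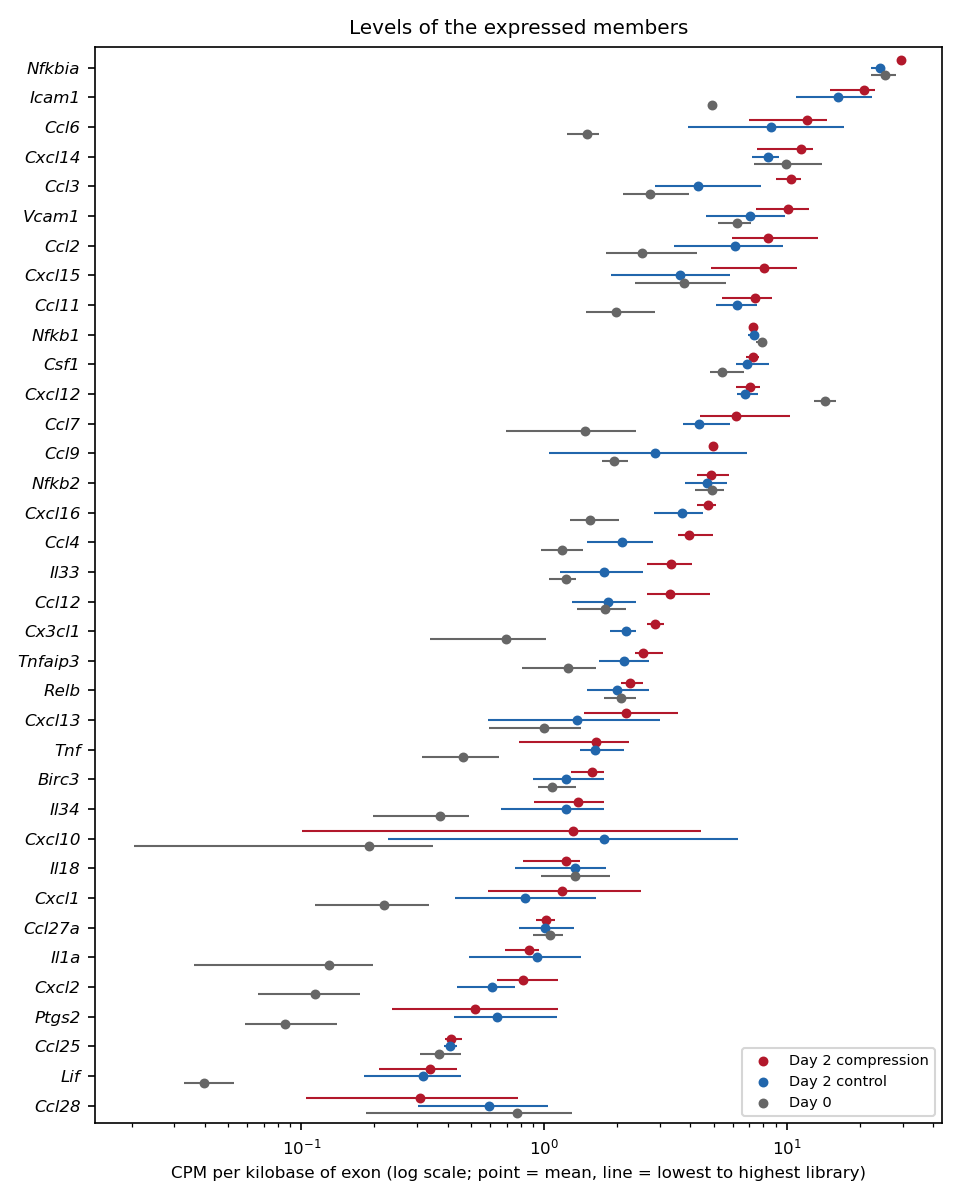
Mean level of each of the 36 expressed members in CPM per kilobase of exon (log scale), with the lowest to highest of 4 libraries as a line, for Day 2 compression, Day 2 control and Day 0. Nfkbia is highest in each group, and Cxcl12 is second at Day 0 (14.3 CPM per kilobase) and lower in both Day 2 groups (7.02 and 6.74).

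The promoters of the members were searched for the degenerate NF-kB consensus of 10 bases, on both strands and in the 250 bases before the gene start (RefSeq sequences, GRCm38.p6). Of the 56 members 40 have a promoter window in the table. 13 of these 40 (32.5%) held a match, against 8.23% of 27025 genes with a window of the same length. Since the list was named in part for targets of NF-kB, the higher share is no result of these data. The members that matched are Ccl1, Ccl9, Ccl20, Csf1, Cxcl1, Cxcl2, Cxcl3, Cxcl10, Il6, Lif, Nfkb2, Nfkbia and Tnfaip3, and 4 of them (Ccl1, Ccl20, Cxcl3 and Il6) were not expressed here. The sequences of Cxcl1 (chr5:90890995-90891244, plus strand) and Cxcl2 (chr5:90903649-90903898, plus strand), 2 neighbouring neutrophil chemokine genes, are shown because they hold the same 11 letters, formed by overlapping matches. Those of Nfkbia (chr12:55492648-55492897, minus strand) and Tnfaip3 (chr10:19015411-19015660, minus strand), the feedback inhibitors, are shown for their matches near the gene start. Ccl3 (chr11:83649379-83649628, minus strand), a macrophage chemokine gene with one of the larger differences between compression and control, is shown as a window without a match. Each is 250 bases, 5′ to 3′ on the gene's strand, with matches in capitals:
Cxcl1: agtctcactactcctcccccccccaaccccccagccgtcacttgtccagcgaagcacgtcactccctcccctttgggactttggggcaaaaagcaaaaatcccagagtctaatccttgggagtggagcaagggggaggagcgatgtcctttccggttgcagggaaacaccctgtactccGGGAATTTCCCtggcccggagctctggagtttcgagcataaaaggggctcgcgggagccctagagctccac
Cxcl2: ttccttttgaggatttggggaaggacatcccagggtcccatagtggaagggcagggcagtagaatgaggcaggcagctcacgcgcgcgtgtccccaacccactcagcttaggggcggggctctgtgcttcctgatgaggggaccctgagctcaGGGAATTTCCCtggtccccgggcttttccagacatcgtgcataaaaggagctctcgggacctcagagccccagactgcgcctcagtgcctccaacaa
Nfkbia: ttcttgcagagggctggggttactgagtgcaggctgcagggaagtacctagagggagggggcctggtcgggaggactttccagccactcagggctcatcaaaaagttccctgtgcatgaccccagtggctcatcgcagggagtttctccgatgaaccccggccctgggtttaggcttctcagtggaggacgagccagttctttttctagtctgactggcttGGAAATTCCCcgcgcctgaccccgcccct
Tnfaip3: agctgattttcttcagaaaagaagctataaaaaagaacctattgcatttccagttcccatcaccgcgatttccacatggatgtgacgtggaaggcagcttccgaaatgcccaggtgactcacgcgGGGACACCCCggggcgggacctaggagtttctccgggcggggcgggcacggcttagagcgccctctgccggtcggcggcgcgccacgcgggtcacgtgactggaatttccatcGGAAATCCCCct
Ccl3: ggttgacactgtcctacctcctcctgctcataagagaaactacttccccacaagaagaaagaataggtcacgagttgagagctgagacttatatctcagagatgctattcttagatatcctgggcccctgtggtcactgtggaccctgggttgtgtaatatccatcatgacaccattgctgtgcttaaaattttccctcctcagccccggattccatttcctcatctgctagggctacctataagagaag
In Cxcl1 the letters GGGAATTTCCC lie 71 to 61 bases before the gene start, in Cxcl2 97 to 87 and in the unexpressed neighbour Cxcl3 73 to 63. Nfkbia has GGAAATTCCC 29 to 20 bases before its start. Tnfaip3 has GGGACACCCC 125 to 116 and GGAAATCCCC 12 to 3 bases before its start. A match of letters is no measurement of binding.

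Both Day 2 groups were then compared with Day 0, which asks what 2 days of culture with crosslinked or uncrosslinked polymer did to these genes. Under compression 25 of the 37 tested members rose and 2 fell relative to Day 0 (edgeR's quasi-likelihood test, adjusted p under 0.05), where 26.6% of all 15246 genes tested rose and 22.5% fell. In controls 17 rose and 2 fell, beside 22.6% and 17.6% of all genes. At least 2-fold rises were called for 20 members under compression (9.08% of all genes) and 14 in controls (6.78% of all genes), and at least 2-fold falls for 2 members in each (2.62% of all genes under compression and 2.5% in controls). The median log2 fold change of the 37 was 1.35 under compression and 0.51 in controls, against 0.02 over all genes in each comparison. The filter on low counts keeps a gene that is counted in any group, so a member near 0 at Day 0 is among the 37 only if it was higher at Day 2. Likewise Ccl24, near 0 at Day 2, is among the 37 only because it was higher at Day 0. The 2 comparisons share the Day 0 libraries, and the difference between them is the comparison of compression with control given further on, in which no gene passed the threshold. In bulk samples, fewer cells of a type and less RNA per cell cannot be told apart.

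**Figure D2:**
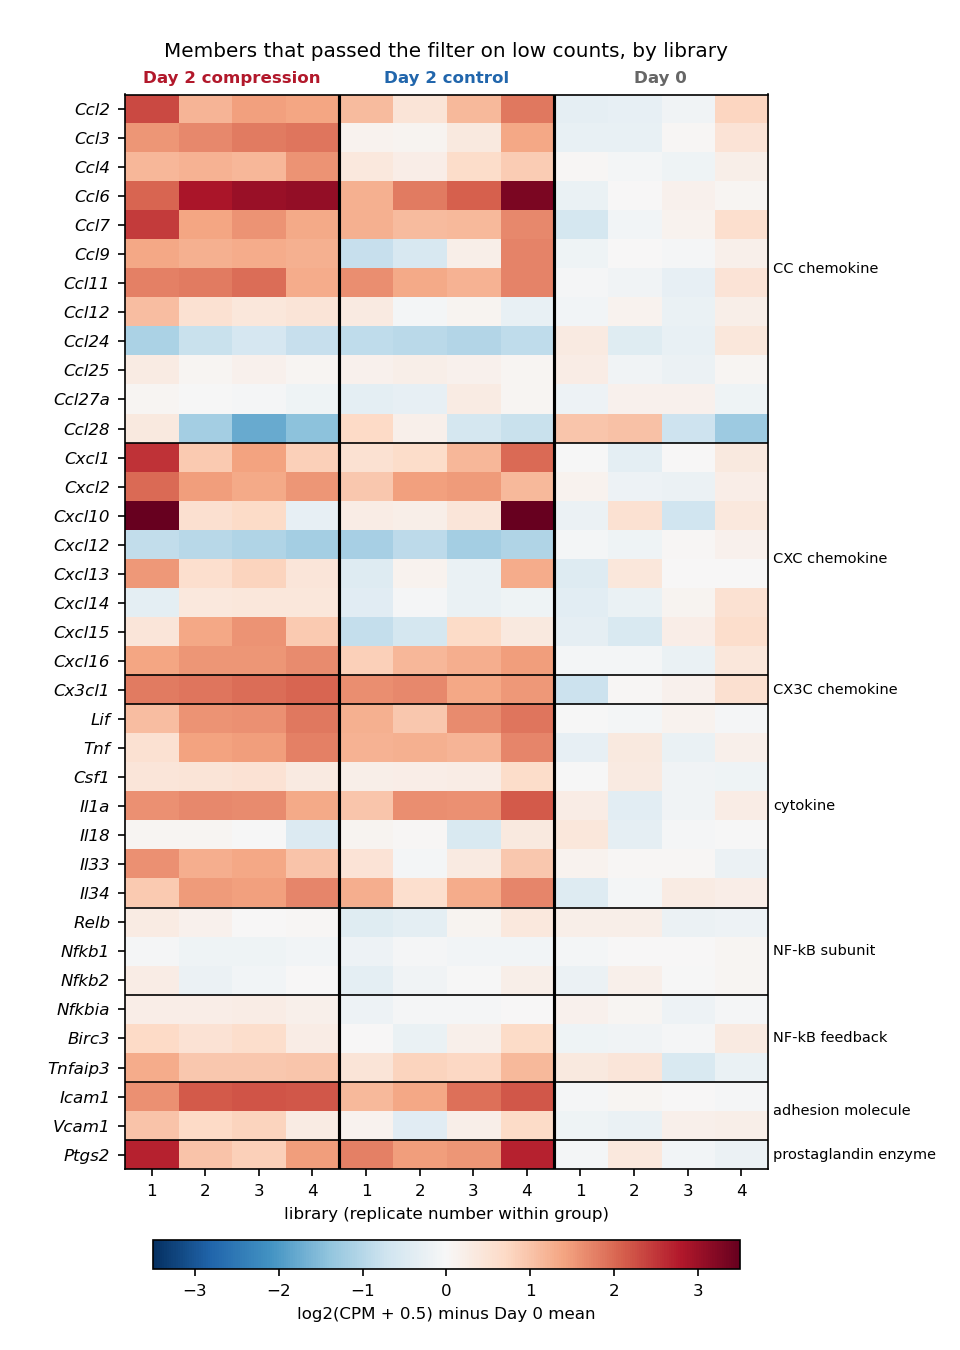
Level of each of the 37 tested members in each of the 12 libraries, as log2(CPM + 0.5) minus the Day 0 mean of the gene, with compression left, control next and Day 0 right; colours stop at 3.5 in either direction. Many chemokine and cytokine rows are red in both Day 2 groups, the 3 NF-kB subunits are near white throughout, and Cxcl10 is dark in compression replicate 1 (9.93 CPM) and control replicate 4 (14.2 CPM) alone.

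**Figure D3:**
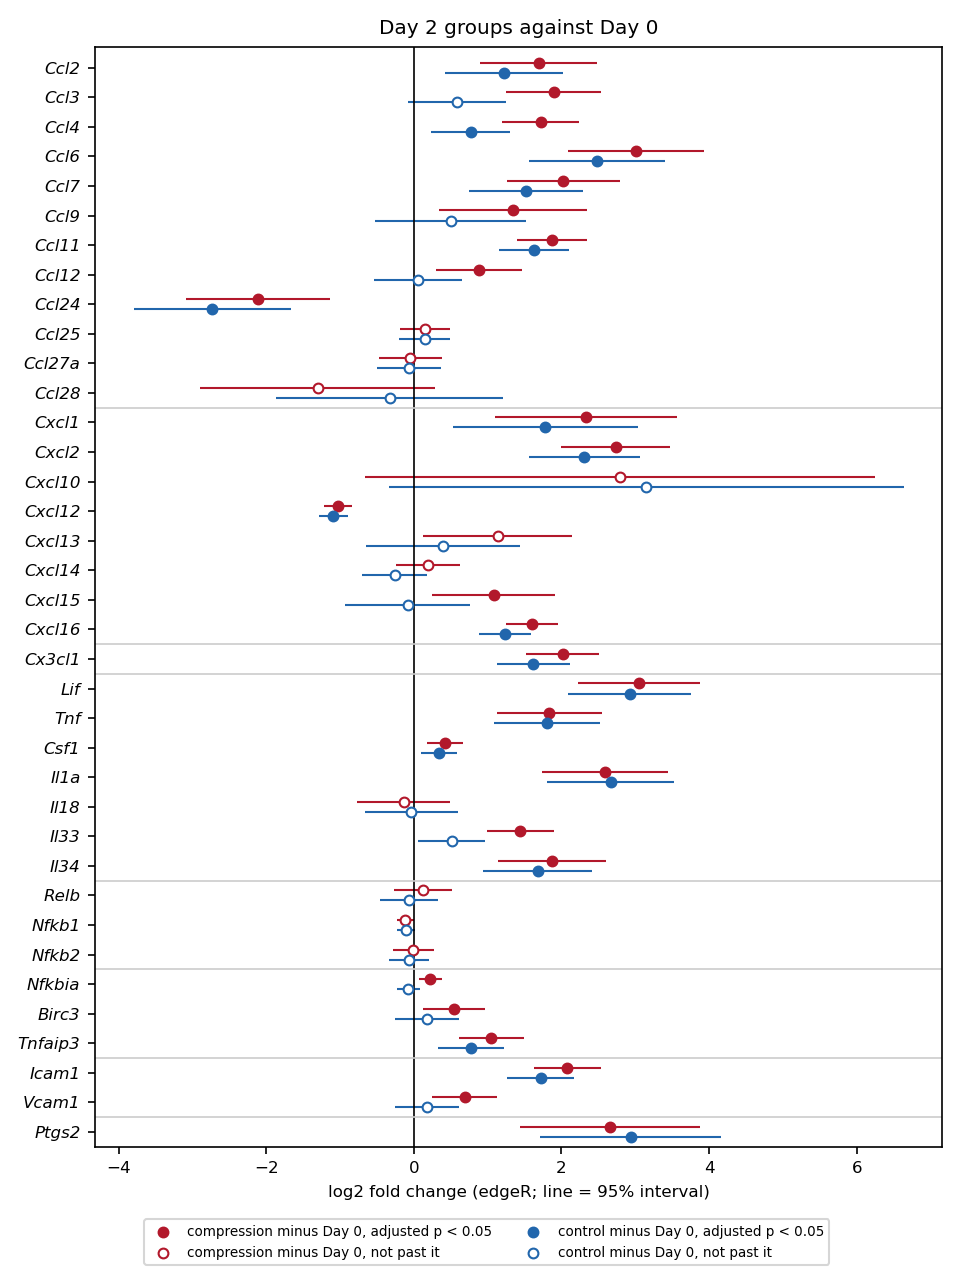
Log2 fold changes of the 37 tested members against Day 0 from edgeR, with 95% intervals, compression above control for each gene; filled points passed the adjusted threshold of 0.05. Under compression 27 points are filled, and in controls 19; Ccl24 and Cxcl12 are the filled points below 0.

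Of the 12 tested CC chemokine genes, 8 rose and 1 fell under compression (26.6% and 22.5% of all genes). In controls 5 rose and 1 fell (22.6% and 17.6% of all genes). Ccl6, a chemokine gene of rodent myeloid cells, had the largest rise among the CC genes. It stood at 12.5, 22.8, 25.4 and 26.4 CPM in compression replicates 1 to 4, 7.05, 10.8, 13.2 and 30.7 CPM in control replicates 1 to 4 and 2.22, 2.70, 3.03 and 2.88 CPM in Day 0 replicates 1 to 4. Every Day 2 library lay above every Day 0 library, with control replicate 4 the highest of all and compression replicate 1 the lowest of its group. On the log2 scale Ccl6 changed by 3.01 (SE 0.42, adjusted p = 0.000112) for compression against Day 0 and 2.48 (SE 0.42, adjusted p = 0.000631) for control against Day 0. Ccl9, its neighbour in the genome and a ligand gene for the receptor Ccr1, stood at 15.7, 14.6, 15.3 and 14.7 CPM in compression replicates 1 to 4, 3.19, 3.84, 6.90 and 20.9 CPM in control replicates 1 to 4 and 5.26, 5.98, 5.69 and 6.74 CPM in Day 0 replicates 1 to 4. The compression libraries lay between 14.6 and 15.7 CPM, whereas control replicate 4 was several times higher than the other controls. Ccl9 rose under compression (1.35, SE 0.46, adjusted p = 0.0288), while in controls the change was 0.50 (SE 0.47, adjusted p = 0.426). This call was lost when Day 0 replicate 1, 2 or 3 or any single compression library was left out (adjusted p = 0.0524 to 0.0687).

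Ccl3 and Ccl4, which encode the macrophage inflammatory proteins, lie in the same cluster on chromosome 11 (83572919 to 83664683 in GRCm38, with Ccl9 and Ccl6). Ccl3 stood at 6.92, 7.59, 8.51 and 8.77 CPM in compression replicates 1 to 4, 2.28, 2.20, 2.75 and 6.002 CPM in control replicates 1 to 4 and 1.63, 1.64, 2.11 and 3.03 CPM in Day 0 replicates 1 to 4. The compression libraries lay above all others, and among the controls replicate 4 was high. Its log2 fold change was 1.89 (SE 0.30, adjusted p = 0.000185) for compression against Day 0 and 0.59 (SE 0.31, adjusted p = 0.145) for control against Day 0. Ccl4 stood at 2.36, 2.48, 2.36 and 3.27 CPM in compression replicates 1 to 4, 1.16, 0.995, 1.495 and 1.85 CPM in control replicates 1 to 4 and 0.813, 0.712, 0.642 and 0.958 CPM in Day 0 replicates 1 to 4. No compression library overlapped with a control, and no control overlapped with Day 0. The fold change of Ccl4 was 1.72 (SE 0.24, adjusted p = 6.69e-05) for compression against Day 0 and 0.77 (SE 0.25, adjusted p = 0.0243) for control against Day 0; in controls the call was lost without control replicate 3 or 4 or Day 0 replicate 2 or 3 (adjusted p = 0.0528 to 0.0768).

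The monocyte chemoattractant cluster on chromosome 11 (82035571 to 82103400) holds Ccl2, Ccl7 and Ccl12 and the eosinophil chemokine gene Ccl11. Ccl2 stood at 15.2, 6.78, 8.21 and 7.87 CPM in compression replicates 1 to 4, 6.37, 3.91, 6.59 and 10.98 CPM in control replicates 1 to 4 and 2.05, 2.14, 2.43 and 4.85 CPM in Day 0 replicates 1 to 4. Compression replicate 1 was the highest library and Day 0 replicate 4 stood above its group. Ccl2 had a log2 fold change of 1.69 (SE 0.37, adjusted p = 0.00206) for compression against Day 0 and 1.22 (SE 0.37, adjusted p = 0.0180) for control against Day 0, and the control call was lost without control replicate 4 (0.92, adjusted p = 0.0559) or without Day 0 replicate 1 or 3 (adjusted p = 0.0573 and 0.0524). Ccl7 stood at 8.21, 3.71, 4.29 and 3.53 CPM in compression replicates 1 to 4, 3.31, 2.98, 3.02 and 4.66 CPM in control replicates 1 to 4 and 0.556, 0.996, 1.24 and 1.92 CPM in Day 0 replicates 1 to 4, so that each Day 2 library exceeded each Day 0 library. It rose by 2.02 (SE 0.36, adjusted p = 0.000389) for compression against Day 0 and 1.52 (SE 0.36, adjusted p = 0.00412) for control against Day 0. Ccl11 stood at 8.25, 8.53, 9.43 and 5.83 CPM in compression replicates 1 to 4, 7.43, 5.94, 5.51 and 8.17 CPM in control replicates 1 to 4 and 2.01, 1.85, 1.60 and 3.08 CPM in Day 0 replicates 1 to 4. Here too the Day 2 libraries were all above Day 0, and the 2 Day 2 groups overlapped. Its log2 fold change was 1.88 (SE 0.22, adjusted p = 1.62e-05) for compression against Day 0 and 1.63 (SE 0.22, adjusted p = 7.43e-05) for control against Day 0.

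Ccl12, a mouse monocyte chemokine gene near the lower limit of expression, stood at 2.59, 1.61, 1.42 and 1.49 CPM in compression replicates 1 to 4, 1.29, 0.892, 1.05 and 0.702 CPM in control replicates 1 to 4 and 0.856, 1.07, 0.734 and 1.17 CPM in Day 0 replicates 1 to 4. Every compression library was above every other library. Relative to Day 0 it rose under compression (0.88, SE 0.27, adjusted p = 0.0148) and differed by 0.06 in controls (SE 0.28, adjusted p = 0.884). The call was lost without compression replicate 1 (0.63, adjusted p = 0.0556) or Day 0 replicate 3 (adjusted p = 0.0522). Ccl24, a further eosinophil chemokine gene, was the one CC member that fell. Ccl24 passed the filter on low counts only through its Day 0 libraries, so a fall was the only call open to it. It stood at 0.0380, 0.175, 0.270 and 0.162 CPM in compression replicates 1 to 4, 0.129, 0.103, 0.0680 and 0.128 CPM in control replicates 1 to 4 and 0.941, 0.356, 0.459 and 1.02 CPM in Day 0 replicates 1 to 4, from 19, 11 and 71 counts over the 3 groups. Its log2 fold change was -2.11 (SE 0.45, adjusted p = 0.00169) for compression against Day 0 and -2.73 (SE 0.50, adjusted p = 0.000674) for control against Day 0. Ccl25, Ccl27a and Ccl28, chemokine genes of gut, skin and mucosal surfaces, did not pass the test in either comparison. Ccl28 stood at 3.76, 0.979, 0.507 and 0.745 CPM in compression replicates 1 to 4, 5.02, 3.33, 1.70 and 1.47 CPM in control replicates 1 to 4 and 6.20, 6.33, 1.56 and 0.899 CPM in Day 0 replicates 1 to 4, which split Day 0 into 2 libraries above 6 CPM and 2 below 2 CPM.

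Of the 8 tested CXC chemokine genes, 4 rose and 1 fell under compression (26.6% and 22.5% of all genes). In controls 3 rose and 1 fell (22.6% and 17.6% of all genes). Cxcl1 and Cxcl2, whose promoters are printed above, encode chemokines that attract neutrophils through Cxcr2. Cxcl2 stood at 2.36, 1.504, 1.32 and 1.62 CPM in compression replicates 1 to 4, 0.901, 1.48, 1.56 and 1.09 CPM in control replicates 1 to 4 and 0.299, 0.142, 0.138 and 0.359 CPM in Day 0 replicates 1 to 4. Every Day 2 library exceeded every Day 0 library, although the gene had only 24 counts over the Day 0 libraries. Cxcl2 had a log2 fold change of 2.74 (SE 0.34, adjusted p = 2.58e-05) for compression against Day 0 and 2.31 (SE 0.35, adjusted p = 0.000164) for control against Day 0. Cxcl1 stood at 4.68, 1.19, 1.89 and 1.101 CPM in compression replicates 1 to 4, 0.804, 0.892, 1.495 and 3.06 CPM in control replicates 1 to 4 and 0.385, 0.214, 0.413 and 0.629 CPM in Day 0 replicates 1 to 4. Compression replicate 1 and control replicate 4 were each the highest of their group, and no Day 2 library overlapped with Day 0. Its log2 fold change was 2.33 (SE 0.57, adjusted p = 0.00421) for compression against Day 0 and 1.78 (SE 0.58, adjusted p = 0.0260) for control against Day 0, and the control call was lost without control replicate 4 (1.27, adjusted p = 0.0851) or Day 0 replicate 1, 2 or 3 (adjusted p = 0.0617, 0.0632 and 0.0582). Without compression replicate 1 the compression value was 1.65 (adjusted p = 0.0119).

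Cxcl16, which encodes a membrane-bound chemokine and scavenger receptor, stood at 12.9, 14.5, 14.5 and 15.5 CPM in compression replicates 1 to 4, 8.56, 10.8, 11.8 and 13.6 CPM in control replicates 1 to 4 and 4.36, 4.34, 3.85 and 6.17 CPM in Day 0 replicates 1 to 4. The Day 2 libraries were all above Day 0, and the gene shares 18.3% of its exon length with Zmynd15 on the opposite strand. It rose by 1.60 (SE 0.16, adjusted p = 5.15e-06) for compression against Day 0 and 1.24 (SE 0.16, adjusted p = 5.84e-05) for control against Day 0. Cxcl15, a chemokine gene of mouse lung epithelium, stood at 10.3, 20.2, 23.3 and 14.7 CPM in compression replicates 1 to 4, 4.02, 4.73, 12.4 and 9.77 CPM in control replicates 1 to 4 and 5.99, 5.05, 8.94 and 11.95 CPM in Day 0 replicates 1 to 4. Control and Day 0 libraries covered the same range, and compression replicates 2 and 3 were the highest. The change was 1.08 (SE 0.38, adjusted p = 0.0328) for compression against Day 0 and -0.08 (SE 0.39, adjusted p = 0.889) for control against Day 0. The compression call was lost without Day 0 replicate 1, 2 or 3 or compression replicate 2 or 3 (adjusted p = 0.0545 to 0.0964).

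Cxcl12 fell in both Day 2 groups. It stood at 63.6, 59.0, 56.5 and 50.5 CPM in compression replicates 1 to 4, 51.6, 62.1, 50.9 and 55.9 CPM in control replicates 1 to 4 and 112, 106, 121 and 130.1 CPM in Day 0 replicates 1 to 4. No Day 2 library reached the lowest Day 0 library, and the Day 2 groups overlapped. Cxcl12 had a log2 fold change of -1.03 (SE 0.09, adjusted p = 1.49e-06) for compression against Day 0 and -1.09 (SE 0.09, adjusted p = 1.51e-06) for control against Day 0. Endothelial markers (Pecam1, Cdh5, Kdr, Tek, Tie1 and Emcn) moved alongside: their sum was 61.6 to 80.0 CPM under compression, 47.0 to 91.5 CPM in controls and 257 to 430.1 CPM at Day 0. Mesenchyme markers (Col1a1, Col1a2, Pdgfra, Tbx4 and Tbx5) summed to 3059 to 3707, 2673 to 3383 and 3093 to 3893 CPM in the same order. Of these 5, 2 fell under compression (22.5% of all genes) and 3 in controls (17.6% of all genes). The part of either cell type in the fall of Cxcl12 was not tested. Cxcl14 and Cxcl13 did not pass the test in either comparison. Cxcl10, which encodes an interferon-induced chemokine, stood at 9.93, 0.804, 0.912 and 0.227 CPM in compression replicates 1 to 4, 0.547, 0.515, 0.680 and 14.2 CPM in control replicates 1 to 4 and 0.257, 0.783, 0.0459 and 0.629 CPM in Day 0 replicates 1 to 4. A single library of each Day 2 group stood far above the others, and the log2 fold changes had wide intervals (-0.66 to 6.25 for compression and -0.33 to 6.63 for controls).

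Cx3cl1 encodes fractalkine, the membrane-bound ligand of the macrophage receptor Cx3cr1. It stood at 10.5, 10.9, 11.5 and 12.2 CPM in compression replicates 1 to 4, 9.04, 9.37, 7.34 and 8.36 CPM in control replicates 1 to 4 and 1.33, 2.70, 2.93 and 4.01 CPM in Day 0 replicates 1 to 4. The 3 groups did not overlap, with compression highest and Day 0 lowest. Relative to Day 0 the log2 fold change was 2.02 (SE 0.23, adjusted p = 1.18e-05) for compression against Day 0 and 1.62 (SE 0.23, adjusted p = 0.000102) for control against Day 0.

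Of the 7 tested cytokine genes, 6 rose under compression (26.6% of all genes) and 5 in controls (22.6% of all genes). No cytokine gene fell in either comparison (22.5% and 17.6% of all genes). Lif, a cytokine of the interleukin 6 family that signals through Lifr and Il6st, had the largest fitted rise of the members under compression. It stood at 0.913, 1.504, 1.55 and 1.91 CPM in compression replicates 1 to 4, 1.09, 0.789, 1.63 and 1.98 CPM in control replicates 1 to 4 and 0.171, 0.142, 0.229 and 0.150 CPM in Day 0 replicates 1 to 4. The Day 2 groups overlapped with each other but not with Day 0, where the gene had 16 counts in all. The log2 fold change was 3.05 (SE 0.38, adjusted p = 2.6e-05) for compression against Day 0 and 2.93 (SE 0.39, adjusted p = 5.88e-05) for control against Day 0. Il1a, which encodes interleukin 1 alpha, stood at 1.75, 1.89, 1.86 and 1.36 CPM in compression replicates 1 to 4, 0.965, 1.82, 1.77 and 2.81 CPM in control replicates 1 to 4 and 0.385, 0.0712, 0.183 and 0.389 CPM in Day 0 replicates 1 to 4. Its Day 2 libraries were likewise all above Day 0, and compression and control overlapped. The rise was 2.59 (SE 0.40, adjusted p = 0.000133) for compression against Day 0 and 2.67 (SE 0.40, adjusted p = 0.000153) for control against Day 0, with 11.2% of the exon length overlapping Gm14023 on the opposite strand.

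Tnf, the gene of tumour necrosis factor, stood at 1.29, 2.80, 2.94 and 3.66 CPM in compression replicates 1 to 4, 2.35, 2.40, 2.31 and 3.51 CPM in control replicates 1 to 4 and 0.513, 1.07, 0.550 and 0.899 CPM in Day 0 replicates 1 to 4. The Day 2 libraries exceeded those of Day 0, with compression replicate 1 the lowest and compression replicate 4 the highest among them. Tnf rose by 1.84 (SE 0.33, adjusted p = 0.000471) for compression against Day 0 and 1.80 (SE 0.33, adjusted p = 0.000755) for control against Day 0. The 2 ligands of the macrophage growth factor receptor Csf1r, Il34 and Csf1, rose in both Day 2 groups. Il34 stood at 1.79, 2.87, 2.74 and 3.46 CPM in compression replicates 1 to 4, 2.41, 1.30, 2.48 and 3.45 CPM in control replicates 1 to 4 and 0.385, 0.641, 0.963 and 0.928 CPM in Day 0 replicates 1 to 4, a log2 fold change of 1.87 (SE 0.34, adjusted p = 0.000522) for compression against Day 0 and 1.68 (SE 0.34, adjusted p = 0.00160) for control against Day 0. Csf1 stood at 38.3, 38.7, 40.4 and 35.7 CPM in compression replicates 1 to 4, 32.5, 33.5, 34.4 and 44.4 CPM in control replicates 1 to 4 and 27.9, 35.2, 26.1 and 25.4 CPM in Day 0 replicates 1 to 4. Only compression separated from Day 0 in full, since Day 0 replicate 2 lay above 3 of the controls. The log2 fold change of Csf1 was 0.42 (SE 0.11, adjusted p = 0.00697) for compression against Day 0 and 0.34 (SE 0.11, adjusted p = 0.0284) for control against Day 0; the control call was lost without control replicate 4 (0.21, adjusted p = 0.116) or Day 0 replicate 1, 3 or 4 (adjusted p = 0.0758, 0.0974 and 0.100).

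Il33, which encodes a nuclear alarmin released by damaged barrier cells, stood at 11.8, 9.27, 9.86 and 7.64 CPM in compression replicates 1 to 4, 5.18, 3.36, 4.55 and 7.34 CPM in control replicates 1 to 4 and 3.89, 3.63, 3.67 and 3.03 CPM in Day 0 replicates 1 to 4. All compression libraries were above all others, by a small margin over control replicate 4. It rose under compression relative to Day 0 (1.44, SE 0.21, adjusted p = 9.07e-05), and the control change was 0.51 (SE 0.21, adjusted p = 0.0713). The gene of its receptor, Il1rl1, averaged 0.289 ± 0.122 CPM under compression, 0.192 ± 0.141 CPM in controls and 0.412 ± 0.0898 CPM at Day 0 (SD, n = 4 each). Il18 stayed between 0.782 and 1.93 CPM in all 12 libraries and did not pass the test in either comparison.

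The 2 adhesion molecule genes encode the endothelial and epithelial ligands that leukocyte integrins bind. Icam1 stood at 65.8, 96.7, 101 and 98.6 CPM in compression replicates 1 to 4, 47.6, 55.0, 82.0 and 97.6 CPM in control replicates 1 to 4 and 20.8, 22.3, 21.5 and 20.9 CPM in Day 0 replicates 1 to 4. Every Day 2 library was above every Day 0 library, and the Day 0 values lay close together. The log2 fold change was 2.08 (SE 0.21, adjusted p = 6.98e-06) for compression against Day 0 and 1.72 (SE 0.21, adjusted p = 4.07e-05) for control against Day 0, and 11.7% of its exon length overlaps Gm47079 on the opposite strand. Vcam1 stood at 109, 88.2, 93.5 and 66.3 CPM in compression replicates 1 to 4, 59.8, 41.2, 63.4 and 86.8 CPM in control replicates 1 to 4 and 49.3, 46.2, 61.9 and 63.3 CPM in Day 0 replicates 1 to 4. It rose under compression (0.69, SE 0.20, adjusted p = 0.0130) and was 0.18 in controls (SE 0.20, adjusted p = 0.514). Ptgs2, the gene of the inducible cyclooxygenase that makes prostaglandins, stood at 5.21, 1.26, 1.08 and 1.94 CPM in compression replicates 1 to 4, 2.48, 1.96, 2.07 and 5.17 CPM in control replicates 1 to 4 and 0.342, 0.641, 0.321 and 0.270 CPM in Day 0 replicates 1 to 4. Compression replicate 1 and control replicate 4 were far above the rest of their groups. Ptgs2 rose by 2.66 (SE 0.57, adjusted p = 0.00174) for compression against Day 0 and 2.94 (SE 0.57, adjusted p = 0.00114) for control against Day 0. Without compression replicate 1 the compression value was 1.92 (adjusted p = 0.00270).

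The NF-kB subunit genes did not pass the test in either comparison with Day 0. Nfkb1, which encodes p105 and its product p50, stood at 91.8, 84.8, 86.0 and 88.4 CPM in compression replicates 1 to 4, 83.6, 91.9, 89.1 and 88.9 CPM in control replicates 1 to 4 and 89.8, 95.1, 95.9 and 99.4 CPM in Day 0 replicates 1 to 4. Its log2 fold change was -0.12 under compression (95% interval -0.23 to 0.00) and -0.11 in controls (-0.22 to 0.01). Nfkb2 and Relb, the pair of the alternative pathway, averaged 22.3 ± 3.11 and 8.78 ± 0.815 CPM under compression, 21.5 ± 3.54 and 7.77 ± 2.21 CPM in controls, and 22.4 ± 2.52 and 8.08 ± 1.35 CPM at Day 0 (SD, n = 4 each). The intervals against Day 0 were -0.28 to 0.27 and -0.34 to 0.21 for Nfkb2 under compression and in controls, and -0.26 to 0.52 and -0.46 to 0.33 for Relb.

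Of the 3 feedback genes, 3 rose under compression (26.6% of all genes) and 1 in controls (22.6% of all genes). Tnfaip3, which encodes the ubiquitin-editing inhibitor A20, stood at 22.3, 17.03, 17.2 and 17.5 CPM in compression replicates 1 to 4, 12.2, 15.3, 14.5 and 19.6 CPM in control replicates 1 to 4 and 11.1, 11.8, 5.87 and 7.31 CPM in Day 0 replicates 1 to 4. The Day 2 libraries were all above Day 0, where replicates 1 and 2 were higher than replicates 3 and 4. It rose by 1.05 (SE 0.20, adjusted p = 0.000911) for compression against Day 0 and 0.78 (SE 0.21, adjusted p = 0.00868) for control against Day 0. Nfkbia stood at 48.2, 47.5, 48.6 and 46.1 CPM in compression replicates 1 to 4, 35.7, 39.5, 39.2 and 40.7 CPM in control replicates 1 to 4 and 45.3, 42.8, 35.9 and 39.2 CPM in Day 0 replicates 1 to 4. Compression libraries were above all others, and control and Day 0 libraries overlapped. The log2 fold change of Nfkbia was small, 0.22 (SE 0.07, adjusted p = 0.0216) for compression against Day 0 and -0.07 (SE 0.07, adjusted p = 0.463) for control against Day 0. The compression call was lost without any single one of compression replicates 1 to 3 or Day 0 replicates 3 and 4 (adjusted p = 0.0519 to 0.0926), and without Day 0 replicate 3 the fold change was 0.15. Birc3, the gene of a ubiquitin ligase of the tumour necrosis factor receptor complex, stood at 8.86, 7.83, 8.48 and 6.44 CPM in compression replicates 1 to 4, 5.37, 4.49, 6.05 and 8.81 CPM in control replicates 1 to 4 and 4.71, 4.84, 5.18 and 6.77 CPM in Day 0 replicates 1 to 4. Its change was 0.55 (SE 0.20, adjusted p = 0.0330) for compression against Day 0 and 0.18 (SE 0.20, adjusted p = 0.506) for control against Day 0; the compression call was lost without any single one of compression replicates 1 to 3 or Day 0 replicates 1 to 3 (adjusted p = 0.0707 to 0.103).

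Genes of the receptors and of the signalling core were read from lists of the wider pathway, drawn up with earlier results of these data known. Of 23 chemokine receptor genes 7 were tested; 3 rose and 3 fell under compression, and 2 rose and 2 fell in controls, relative to Day 0. Over all genes 26.6% rose and 22.5% fell under compression, and 22.6% rose and 17.6% fell in controls. Cxcr4, the receptor gene of Cxcl12, averaged 29.8 ± 3.84 CPM under compression, 21.0 ± 5.63 CPM in controls and 42.7 ± 11.7 CPM at Day 0 (SD, n = 4 each), with log2 fold changes of -0.52 (SE 0.20, adjusted p = 0.0443) for compression against Day 0 and -1.03 (SE 0.20, adjusted p = 0.00146) for control against Day 0. Ackr3, the scavenger receptor of Cxcl12, averaged 4.72 ± 0.604, 3.93 ± 0.878 and 9.16 ± 1.24 CPM under compression, in controls and at Day 0 and changed by -0.95 (SE 0.17, adjusted p = 0.000499) for compression against Day 0 and -1.22 (SE 0.18, adjusted p = 0.000112) for control against Day 0. The means of the ligand and its 2 receptors were lower in both Day 2 groups. For Cxcr4 the compression and Day 0 libraries overlapped (33.1 CPM in compression replicate 2, 32.9 CPM in Day 0 replicate 2). Whether the receptor calls hold without single libraries was not tested. Ccrl2 and Ccr1 rose, by 1.54 and 1.18 under compression (adjusted p = 0.000748 and 0.00203) and by 1.05 and 0.77 in controls (adjusted p = 0.0123 and 0.0304). Cxcr2, the receptor gene for Cxcl1 and Cxcl2, was among the 16 chemokine receptor genes that failed the filter.

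Of 12 cytokine receptor genes 11 were tested, and 7 rose under compression (26.6% of all genes) and 6 in controls (22.6% of all genes), with none that fell (22.5% and 17.6% of all genes). Il18r1, a subunit of the interleukin 18 receptor, had the largest change of the list. It stood at 5.93, 13.7, 14.6 and 10.8 CPM in compression replicates 1 to 4, 6.37, 5.70, 6.02 and 8.88 CPM in control replicates 1 to 4 and 0.342, 0.214, 0.367 and 0.928 CPM in Day 0 replicates 1 to 4. Each Day 2 library was more than 5 CPM and each Day 0 library under 1 CPM, with log2 fold changes of 4.44 (SE 0.38, adjusted p = 1.61e-06) for compression against Day 0 and 3.69 (SE 0.38, adjusted p = 9.9e-06) for control against Day 0. Lifr, the receptor gene of Lif, averaged 61.0 ± 5.19 CPM under compression, 61.9 ± 4.04 CPM in controls and 37.9 ± 8.81 CPM at Day 0 (SD, n = 4 each), and rose by 0.68 (SE 0.13, adjusted p = 0.000753) for compression against Day 0 and 0.70 (SE 0.13, adjusted p = 0.000818) for control against Day 0. Of 20 further NF-kB pathway genes, all tested, 7 rose and 2 fell under compression (26.6% and 22.5% of all genes), and 4 rose and 1 fell in controls (22.6% and 17.6% of all genes). The 7 rises under compression lie somewhat above the share of all genes, and the other counts lie below theirs. Myd88, the adaptor of interleukin 1 and Toll-like receptors, rose by 0.53 (SE 0.11, adjusted p = 0.000992) for compression against Day 0 and 0.40 (SE 0.11, adjusted p = 0.00856) for control against Day 0. Traf3, which restrains the alternative pathway, changed by -0.34 (SE 0.07, adjusted p = 0.000911) for compression against Day 0 and -0.38 (SE 0.07, adjusted p = 0.000584) for control against Day 0.

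Compression was set against control at Day 2 to see what restriction by hardened polymer added to culture. No member and no other gene passed the threshold with edgeR (0% of 15246 called in either direction). At an unadjusted p under 0.05, 9 members were higher under compression and none lower, beside 6.73% and 5.33% of all genes tested. Of the 37 tested members 31 had a positive log2 fold change (51% of all genes), and their median was 0.36, against 0.0039 over all genes. In 6 members (Ccl3, Ccl4, Ccl12, Cx3cl1, Il33 and Nfkbia) each compression library exceeded each control, and in none was it the other way; 3.07% and 2.7% of all genes were separated so. With DESeq2, 69 genes passed, among them Ccl3, Il33 and Nfkbia (0.335% of genes higher). With limma-voom and library quality weights 1913 genes passed, and 12 members were higher (7.38% of genes higher).

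The members with the smallest p-values in this comparison were Il33 and Ccl3, whose library values are given above. Il33 averaged 9.63 ± 1.70 CPM under compression and 5.11 ± 1.67 CPM in controls (SD, n = 4 each; log2 fold change 0.93, SE 0.20, adjusted p = 0.252). Ccl3 averaged 7.95 ± 0.854 and 3.31 ± 1.81 CPM under compression and in controls (1.30, SE 0.29, adjusted p = 0.252). The neighbouring Ccl4 averaged 2.62 ± 0.438 CPM under compression and 1.38 ± 0.380 CPM in controls (0.95, SE 0.23, adjusted p = 0.255). Of the 6 members with separated groups, Nfkbia had the smallest difference, 47.6 ± 1.1203 CPM under compression against 38.8 ± 2.14 CPM in controls (0.30, SE 0.07, adjusted p = 0.273). For Ccl12 the means were 1.78 ± 0.546 and 0.984 ± 0.248 CPM for compression and control (0.82, adjusted p = 0.347), and for Cx3cl1 11.3 ± 0.775 and 8.53 ± 0.895 CPM (0.40, adjusted p = 0.453). These 6 genes have non-overlapping groups and none was called.

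The other members with an unadjusted p under 0.05 overlapped between the groups. Cxcl15 averaged 17.1 ± 5.79 CPM under compression and 7.73 ± 4.03 CPM in controls (1.16, SE 0.38, adjusted p = 0.361). Vcam1 averaged 89.3 ± 17.7 CPM under compression and 62.8 ± 18.7 CPM in controls (0.51, adjusted p = 0.380), and Cxcl16 14.4 ± 1.09 and 11.2 ± 2.10 CPM (0.36, adjusted p = 0.389). Cxcl14 had 13.7, 22.7, 23.4 and 23.4 CPM in compression replicates 1 to 4 and 13.1, 16.9, 14.9 and 15.9 CPM in control replicates 1 to 4, so that compression replicate 1 lay within the controls and the other 3 above them (0.46, adjusted p = 0.402). For Nfkb1 the difference was -0.01 (95% interval -0.13 to 0.11) and for Cxcl12 0.06 (-0.13 to 0.25). Levels of Tnf, Il1a, Lif and Ptgs2 were 2.67, 1.71, 1.47 and 2.37 CPM on average under compression and 2.64, 1.84, 1.37 and 2.92 CPM in controls.

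**Figure D4:**
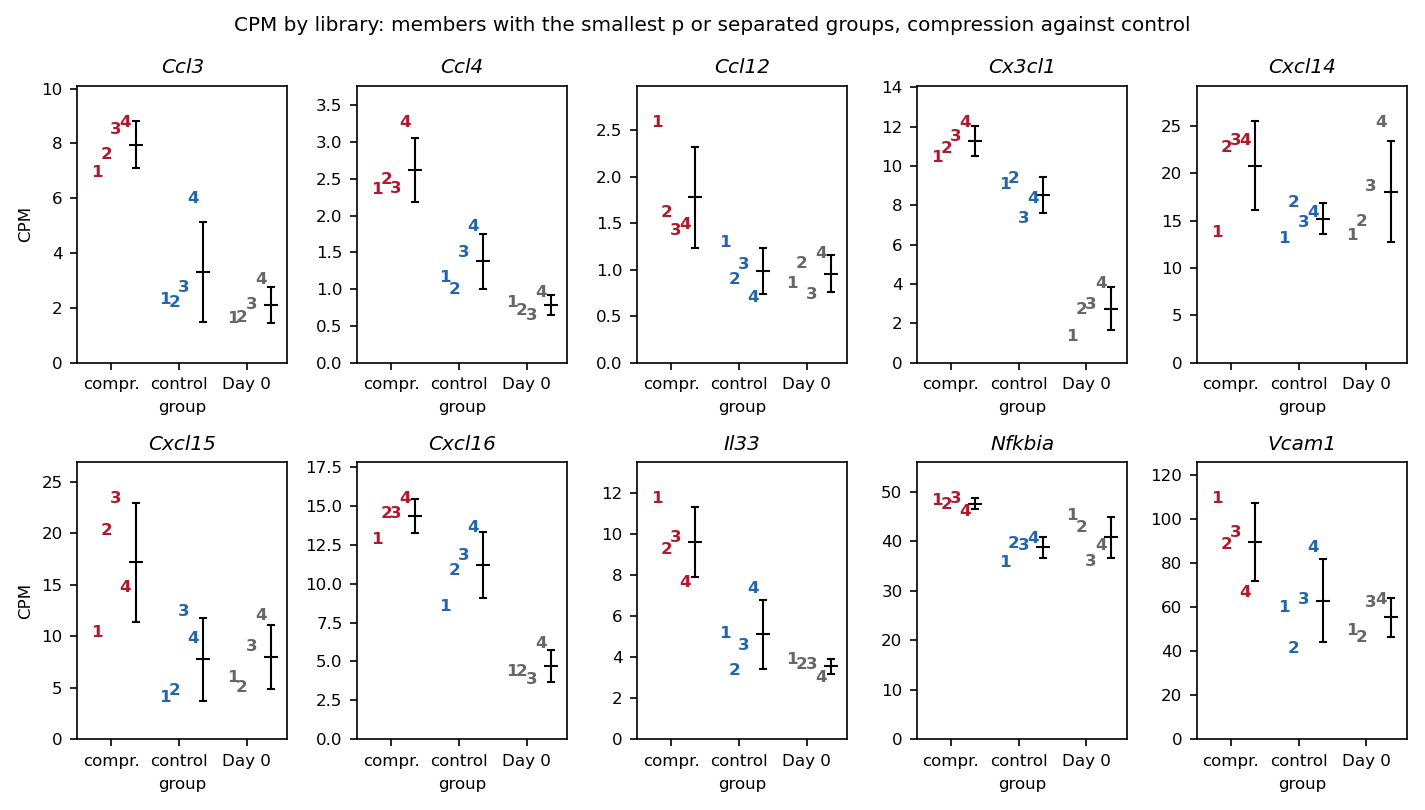
CPM in each library (digits are replicate numbers) with the group mean and SD (n = 4) for the 10 members with an unadjusted p under 0.05 in the comparison of compression with control or with groups that do not overlap. In Ccl3, Ccl4, Ccl12, Cx3cl1, Il33 and Nfkbia the 4 compression libraries lie above the 4 controls; in Ccl3 control replicate 4 (6.002 CPM) is the control nearest to them.

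Several of these values changed when control replicate 4 was left out. Without it 53 genes passed in edgeR, 3 of them members, each higher under compression (0.338% of genes higher): Ccl3 (1.73, adjusted p = 0.00605), Ccl9 (1.71, adjusted p = 0.00605) and Il33 (1.14, adjusted p = 0.0220). With all libraries Ccl9 had a log2 fold change of 0.85 (adjusted p = 0.460). Without both control replicate 4 and compression replicate 1, 446 genes passed (1.8% of genes higher), and 6 members were higher. These were Ccl3 (1.79, adjusted p = 0.00518), Ccl4 (1.16, 0.0297), Ccl6 (1.28, 0.00749), Ccl9 (1.69, 0.00594), Icam1 (0.69, 0.0356) and Il33 (1.04, 0.0147). This alternative was chosen after seeing the data. Without compression replicate 1 alone, control replicate 3 alone or compression replicate 4 alone, 19, 1 and 1 genes passed and no member. Among libraries with Xist under 100 CPM no gene passed (0% of 15541), and so no member. That split kept only control replicates 1 and 4 and compression replicates 2, 3 and 4.

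Markers of macrophages and other leukocytes, taken as a sum, were higher in each Day 2 library than in any Day 0 library. Summed over 15 markers, none of them at 0 in the series, they stood at 440.4, 461, 461 and 408 CPM in compression replicates 1 to 4, at 288, 313, 314 and 448 CPM in control replicates 1 to 4 and at 239.6, 252, 256 and 287 CPM in Day 0 replicates 1 to 4. Control replicate 4 was thus within the compression range, and the other 3 controls were below it. The two-sided exact permutation p of the sum was 0.0857 for compression against control and 0.0286 for each Day 2 group against Day 0, the smallest p that 4 against 4 can give. It takes compression replicates 2 and 3 as separate samples and was not computed with them summed. In edgeR 15 of the 15 markers had a positive log2 fold change for compression against control (51% of all genes), 9 at an unadjusted p under 0.05 (6.73% of all genes higher), and none passed the threshold. Relative to Day 0, 11 of the 15 rose under compression (26.6% of all genes) and 5 in controls (22.6% of all genes). None fell in either comparison (22.5% and 17.6% of all genes). Markers of neutrophils (6 in the table) summed to 4.20 to 11.1 CPM under compression, 1.43 to 8.05 CPM in controls and 3.24 to 9.04 CPM at Day 0. Those of T, B and NK cells (8) stayed at or below 2.33 CPM in every library. The part of these cells in the chemokine and cytokine differences was not tested.

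**Figure D5:**
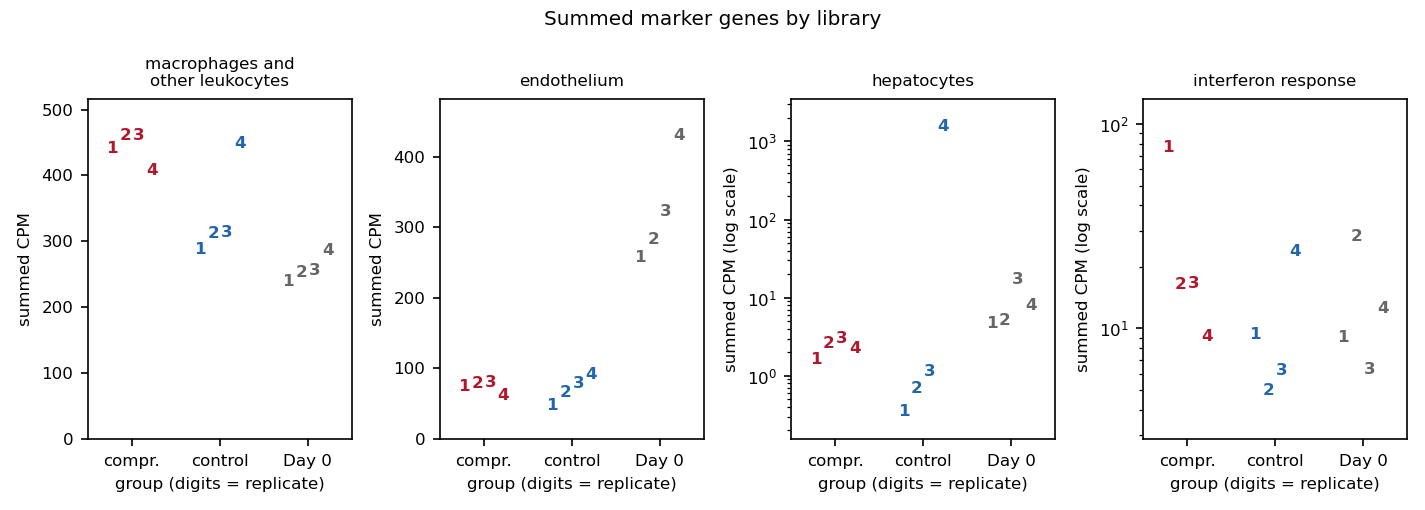
Summed CPM of marker genes in each library (digits are replicate numbers) for macrophages and other leukocytes, endothelium, hepatocytes and the interferon response, the last 2 on a log scale. Leukocyte markers are at 408 to 461 CPM under compression, 288 to 448 CPM in controls and 239.6 to 287 CPM at Day 0; hepatocyte markers reach 1536 CPM in control replicate 4 and interferon genes 77.2 CPM in compression replicate 1.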

How the data were processed

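RNA of whole lung explants was sequenced as 12 KAPA mRNA HyperPrep libraries, per the labels. The authors deposited a table of raw counts (genes by symbol, a column for each library), and per the submitters' processing notes they used fastp, STAR and the mm10 genome build. For versions, counter, annotation and strand setting the sources used here give nothing, so exons overlapping on opposite strands, and reads of near-identical copies (Ccl21a to Ccl21c, Ccl27a and Ccl27b), cannot be told apart.

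Counts were tested with edgeR 4.0.16 (R 4.3.3): filterByExpr by group (min.count 10, min.total.count 15) left 15246 genes, of 24421 with 4505 lacking any count. TMM scaling and 1 robust quasi-likelihood fit over all 12 libraries with the group as the only term (9 residual degrees of freedom) followed, and p-values were adjusted over all genes by the Benjamini-Hochberg method at 0.05. Where no tool is named, an adjusted p is from this test, "called" means past that threshold, and a log2 fold change is the first named group minus the second. Its SE is its size divided by the square root of the F statistic of the test. The fits were tested on simulated data. Alternatives were RLE scaling, no filter, a minimum count of 30, DESeq2 1.42.0, limma-voom 3.58.1 with quality weights, a replicate block, only the groups compared, compression replicates 2 and 3 summed and leaving out each library; 2 more were chosen after seeing the data.

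Intervals and floors cover counting error only where they rest on counts of a library. Gene coordinates and exon lengths are from GENCODE M21 (GRCm38). Members and lists were chosen with earlier results of these data known. Values in every library are given for members called in a comparison with Day 0, for those with an unadjusted p under 0.05 or separated groups between compression and control, for the most abundant members and for Tnf, Nfkbia and Tnfaip3. Further members whose values are given were chosen after their values were seen.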

Additional observations from a re-analysis of the deposited data

Results flagged for a closer look

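In groups of 4 libraries, a value was picked out when its gap to the nearest other library relative to the range of the group passed Dixon's 95% limit for 4 values. This held for 16 of 111 groups of members and libraries. For independent, normally distributed values the limit picks about 1 in 20. The members share the same libraries, so the 16 cannot be judged against that rate. Compression replicate 1 was the highest of its group for Ccl2 (15.2 CPM, next 8.21), Ccl7 (8.21 CPM, next 4.29), Ccl12 (2.59 CPM, next 1.61), Ccl28 (3.76 CPM, next 0.979), Cxcl10 (9.93 CPM, next 0.912) and Tnfaip3 (22.3 CPM, next 17.5). It was the lowest for Icam1 (65.8 CPM, next 96.7) and Cxcl14 (13.7 CPM, next 22.7). Control replicate 4 was the highest of its group for Ccl3 (6.002 CPM, next 2.75), Csf1 (44.4 CPM, next 34.4), Tnf (3.51 CPM, next 2.40), Ptgs2 (5.17 CPM, next 2.48) and Cxcl10 (14.2 CPM, next 0.680). Compression replicate 4 was the highest for Ccl4 (3.27 CPM, next 2.48) and the lowest for Il18 (0.842 CPM, next 1.35), and Day 0 replicate 4 the highest for Ccl2 (4.85 CPM, next 2.43). Of the 16 values, 13 came from the libraries already described for their interferon response genes and hepatocyte markers, and whether these are linked was not tested.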

How the results depend on the processing

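For compression against control, 3 members were called with DESeq2, 12 with limma-voom and 6 without control replicate 4 and compression replicate 1 together. The other alternatives that kept all libraries gave none. Leaving out 1 library gave 0 to 3 members and 0 to 53 genes in all. Over all genes, DESeq2 called 69, limma-voom 1913, a fit of only these 2 groups 4, and the fit without both libraries that stand apart 446. The cause was not tested. Ccl2 (-0.17) and Ccl7 (-0.039) changed sign among libraries with Xist under 100 CPM. Nfkb1, near 0, was 0.0025 with compression replicates 2 and 3 summed, 0.0035 in the Xist split and -0.036 to 0.011 over the leave-outs.

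For compression against Day 0, 23 to 29 members were called over the 18 alternatives, and for control against Day 0 15 to 21. Calls over all genes varied as well, from 6555 to 9121 for compression and from 4700 to 6765 for control. Besides the losses given for single libraries, the compression calls of Ccl9, Cxcl15, Nfkbia and Birc3 were lost with compression replicates 2 and 3 summed, those of Ccl9 and Cxcl15 with no filter, and those of Ccl12, Nfkbia and Birc3 in the Xist split. The control call of Csf1 was lost in a fit of only the groups compared. Without both libraries that stand apart, the control calls of Csf1 (0.22, adjusted p = 0.122) and Ccl4 (0.60, adjusted p = 0.0809) and the compression call of Nfkbia (0.21, adjusted p = 0.0524) were lost. The replicate numbers gave no clear pairing of the samples: correlations of same-numbered deviations ran from -0.23 to 0.23. For control against Day 0 they were all positive (0.065 to 0.17), and replicate 1 was closest to replicate 1 in each comparison. With the replicate block 0 members were called for compression against control, 28 for compression against Day 0 and 20 for control against Day 0. The block called 0% of all genes for compression against control. Against Day 0 it called 27.5% higher and 24.3% lower under compression, and 23.6% and 19.5% in controls. Members with few counts, such as Il1b and Il6, failed the filter and were not tested.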

Other observations

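Chemokines whose symbols lack the Ccl or Cxcl stem were not among the members. Pf4, which encodes platelet factor 4 and is also made by fetal macrophages, had 4.94, 7.73, 7.47 and 6.38 CPM in compression replicates 1 to 4, 2.19, 2.64, 4.72 and 3.77 CPM in control replicates 1 to 4 and 4.28, 4.34, 5.27 and 5.81 CPM in Day 0 replicates 1 to 4. Each compression library exceeded each control, and the log2 fold change was 1.0005 (SE 0.23, adjusted p = 0.252 with edgeR). Ppbp, a platelet chemokine gene, had 6 counts over the compression libraries, 5 over the controls and 18 over Day 0. Both were named after their values were seen. Ccr2, the receptor gene of Ccl2, Ccl7 and Ccl12, failed the filter and averaged 0.443, 0.139 and 0.202 CPM under compression, in controls and at Day 0.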
